A study of Mus musculus with 8 samples.

Results

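The miR-125 and miR-99/100 families were followed in small RNA of the mouse insulinoma line MIN6B1, used as a model of the pancreatic beta cell and named MIN6 in the sample titles. The table of counts holds 11568 distinct read sequences, of which 652 are mature miRNA sequences. Those annotated as any arm of miR-125a, miR-125b, miR-99a, miR-99b or miR-100 were taken, which gave 18 sequences. They belong to 6 arms of 4 miRNAs: 5 sequences of mmu-miR-125a-5p, 4 of mmu-miR-125a-3p, 4 of miR-125b-5p, 2 of miR-99a-5p, 2 of miR-99b-5p and 1 of miR-99b-3p. No miR-100 sequence and no 3p arm of miR-125b or miR-99a was among the sequences analysed here. All 18 lie inside the mature sequence of their miRNA and are 16 to 24 nucleotides (nt) long.

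A miRNA is cut from a hairpin precursor, and the 5p or the 3p arm is held by an Argonaute protein, which silences messenger RNAs that pair with its seed, bases 2 to 8. The miR-125 family is the vertebrate relative of lin-4, the founding miRNA of worm developmental timing, and is known for acting on genes of cell survival and differentiation. The miR-99/100 family is known for acting on the mTOR and IGF1R growth pathway. Both families are made from clusters that also hold a let-7 gene, and miR-125b has been studied in beta cells as a miRNA that responds to glucose.

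The mature sequences, from RefSeq on GRCm38.p6, show what the families share and where they differ. They are written 5′ to 3′ with the seed in capitals. Only the last of them, miR-100-5p, had no listed sequence.
miR-125a-5p: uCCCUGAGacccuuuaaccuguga
miR-125b-5p: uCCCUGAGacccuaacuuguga
miR-99a-5p: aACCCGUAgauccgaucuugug
miR-99b-5p: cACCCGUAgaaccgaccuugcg
miR-125a-3p: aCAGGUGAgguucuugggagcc
miR-99b-3p: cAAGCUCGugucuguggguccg
miR-100-5p: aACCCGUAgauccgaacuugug
The 5p arms of miR-125a and miR-125b have the same seed and the same first 13 bases. The 5p arms of miR-99a and miR-99b also share a seed and match at 18 of 22 positions. Counted from 1 at the 5′ end, with the miR-99a base first, they differ by A1C, U11A, U16C and U21C. The sequence of miR-100-5p differs from miR-99a-5p by U16A alone, so a misread base could move a count between these 2. The 3p arms of miR-125a and miR-99b have seeds of their own. The listed sequences have 6 different seeds in all, because 3 of the 18 start 1 base inside the 5′ end of the mature sequence.

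On GRCm38, miR-99b-5p is at chr17:17830194-17830215, miR-99b-3p at chr17:17830232-17830253, miR-125a-5p at chr17:17830817-17830840 and miR-125a-3p at chr17:17830855-17830876, all on the plus strand. These 4 arms lie inside Spaca6, a sperm membrane protein gene, with the let-7e hairpin between the pairs, and together span 683 bases. In the GENCODE M21 annotation miR-125a-5p overlaps an exon of a Spaca6 transcript and the other 3 arms are intronic. miR-99a-5p is at chr16:77598940-77598961, in an intron of the noncoding host gene Mir99ahg. miR-125b-5p comes from 2 loci with the same mature sequence. The first is at chr16:77646279-77646300, also in an intron of Mir99ahg, and the second at chr9:41581940-41581961, inside the noncoding genes 3110039I08Rik and Gm49317 (introns) and Gm28119 (exon). Counts of miR-125b-5p cannot be assigned to either locus.

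There were 4 groups of 2 libraries, all from MIN6B1 cells transfected with Lipofectamine. Cells received a control plasmid (CTRL) or a plasmid for HENMT1ΔC-T6B, a fusion of a small RNA methyltransferase with a peptide that binds Argonaute proteins. RNA was sequenced without or after oxidation by periodate (NaIO4), a reagent that blocks cloning of unmethylated 3′ ends and spares methylated ones. The labels' protocol gives a range of culture times after transfection and assigns none to a sample, and neither the promoter of the fusion nor the share of cells transfected is given in the labels used here. The labels do not say that the 2 libraries of a group came from separate cultures, or that an oxidized and a non-oxidized library came from the same RNA, so p-values measure only the spread between these libraries, which may be technical.

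Listed counts ranged from 295094 to 6641250 per library. All 11568 sequences have at least 2 counts in each oxidized methyltransferase library, so the listing was selected on that group, and a comparison that includes it starts from sequences that had to be present there. Of the marker miRNAs of the beta cell, 5 of 5 were listed, at a summed 275880 to 282390 counts per 1000000 mature miRNA counts (mature CPM) in non-oxidized control RNA and 116340 to 135167 in oxidized methyltransferase RNA. Markers of neurons, miR-124-3p and miR-9-5p, were at 770 to 1010 mature CPM in the first group and 115 to 118 in the second. The liver marker miR-122-5p was at 41.8 to 132 and 5.48 to 16.1. None of 3 muscle, 6 blood and immune or 3 stromal markers was listed. The part of these shifts in the results below was not tested.

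Together the 18 sequences stood at 4329 ± 203 mature CPM in non-oxidized control RNA (mean ± SD, n = 2 here and for all means below). In order, miR-99b-5p was at 1979 ± 2.97, miR-125a-5p at 937 ± 57.6, miR-99a-5p at 822 ± 268, miR-125b-5p at 485 ± 4.30, miR-125a-3p at 87.2 ± 5.89 and miR-99b-3p at 18.0 ± 0.453 mature CPM. The neighbours miR-125a-5p and miR-99a-5p did not differ beyond their spread. In this order miR-99b-5p ranked 27 and miR-125a-3p ranked 99 among 179 mature miRNA annotations. The 3p arm of miR-125a stood at 0.0926 and 0.0934 of its 5p arm in the 2 libraries, and that of miR-99b at 0.00890 and 0.00924. The 5p arms thus held most of the counts of both hairpins.

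**Figure D1:**
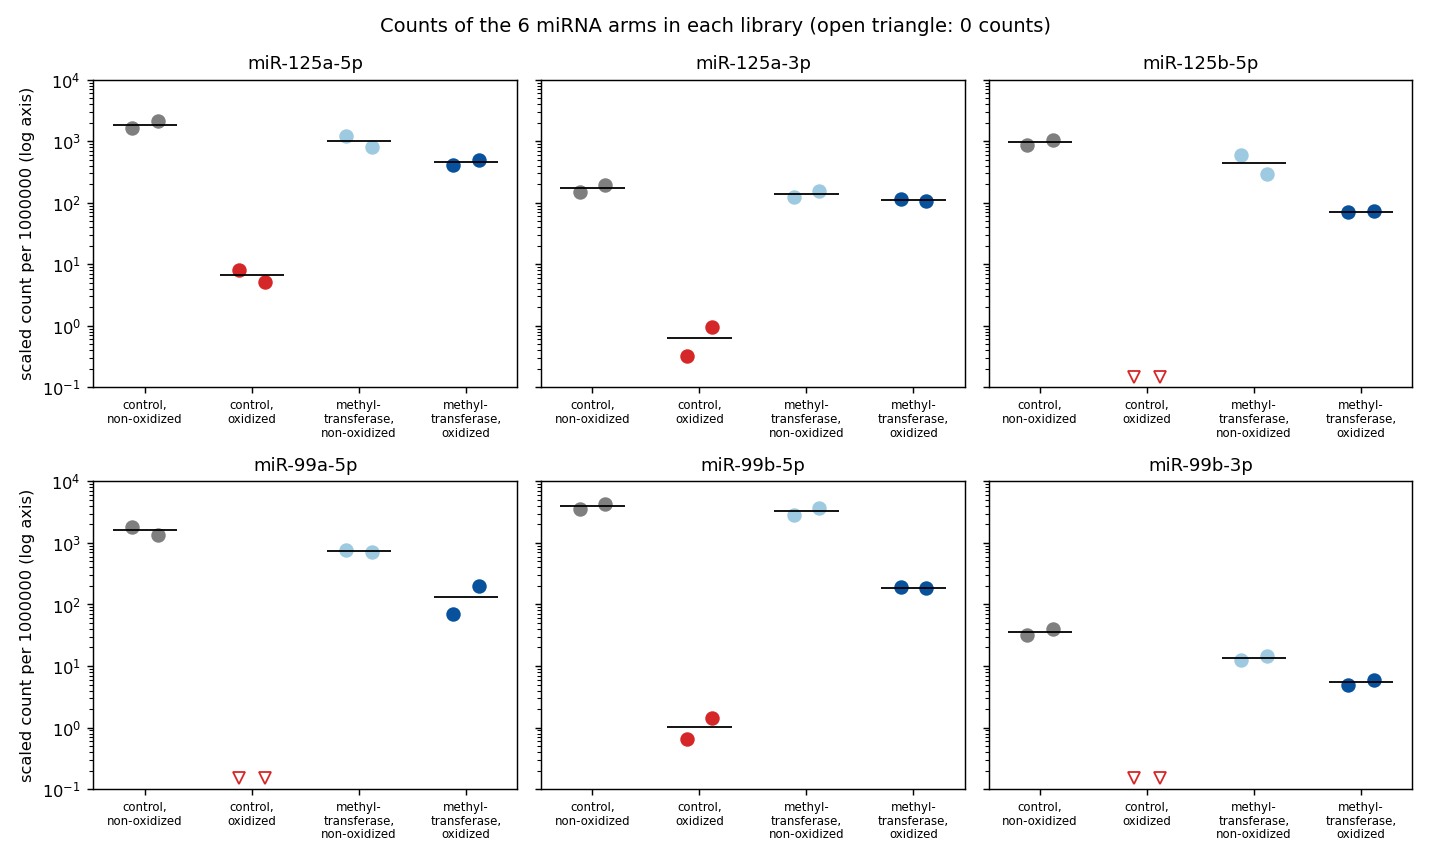
Counts of the 6 arms, each the sum of its listed sequences, scaled by the TMM effective library size and given per 1000000 on a log axis. Each point is a library, bars are means of 2 libraries, and open triangles are libraries with 0 counts. The oxidized control libraries lie at or near the bottom in every panel, and the oxidized methyltransferase libraries lie between them and the non-oxidized libraries, closest to the non-oxidized ones for miR-125a-3p.

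Before oxidation, no difference between the plasmids passed the test for these miRNAs. The most abundant miR-125a-5p sequence, of 24 nt, had 1296 and 1978 counts with the control plasmid and 1041 and 722 with the methyltransferase. The most abundant miR-99b-5p sequence, of 22 nt, had 6584 and 8211 against 5171 and 7654. The library sizes differ, so the fitted values matter here. With edgeR's quasi-likelihood test over 9851 sequences, 0 of the 17 members tested were called at an adjusted p under 0.05, where 0% of all sequences were called. The lowest adjusted p among them was 0.421. At an unadjusted p under 0.05 there were 3 members of 17, and 858 of the 9851 sequences. DESeq2's Wald test called no member, and over all sequences 38 higher and 85 lower. All 17 members had a fitted value below 0, with a median log2 fold change of −0.89 beside −0.63 for mature miRNA sequences and 0.05 for all sequences. For miR-125a-3p and the 22-nt miR-99b-5p sequence that sign turned when counts were scaled by library totals, and in a refit of mature miRNAs alone. Here and below, that refit used TMM factors computed within mature miRNAs, not mature totals. Marker miRNAs also differed between these groups without overlap, and their part in these values was not tested. With the methyltransferase the 5 beta cell markers were at 203692 to 217551 mature CPM, the 2 neuron markers at 429 to 611 and the liver marker at 211 to 395. By arm, in mature CPM, miR-99b-5p was at 2497 ± 112 with the methyltransferase and miR-125b-5p at 358 ± 216.

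With the control plasmid, oxidation removed nearly all counts of these miRNAs. The 18 sequences together fell from 15726 and 18322 counts to 28 and 16. Of these 18, 13 had 0 counts in both oxidized control libraries. The sequences of miR-125b-5p, miR-99a-5p and miR-99b-3p were all at 0, the 22-nt miR-99b-5p sequence kept 2 and 3 counts, and the 21-nt miR-125a-3p sequence kept 1 and 2. In the edgeR fit 16 of 17 members were lower, where 46.4% of all sequences tested were lower. Of mature miRNA sequences, 563 of 607 were lower. Under TMM scaling the fall was at least 688-fold for the 24-nt miR-125a-5p sequence and at least 735-fold for the 22-nt miR-99a-5p sequence, each bound computed with the group at 3 counts per library. With library totals of listed counts in place of TMM sizes, these bounds were 31.7-fold and 34.7-fold. For the 22-nt miR-99b-5p sequence the TMM-scaled counts differed by a ratio of 3875 (95% counting interval 1660 to 11937; log2 fold change −11.81 ± 0.60 SE, edgeR adjusted p = 2.60e-07). Its log2 fold change was −7.46 with total counts and −5.75 among mature miRNAs alone. The median fitted value of the tested members was −9.88, or −7.39 with the 12 members that have no count in oxidized control RNA at their bound, beside −1.14 and −0.81 for all sequences and a fitted −8.69 for mature miRNA sequences. The fall was thus common to nearly all mature miRNA sequences tested. Oxidation was done on RNA, so this fall is in sequences that could be cloned and is no measure of miRNA in cells. In comparisons between plasmids, bulk RNA does not separate fewer cells holding a miRNA from less of it per cell.

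The exception was the shortest sequence, the first 16 bases of miR-125a-5p.
miR-125a-5p, 16 nt: tCCCTGAGacccttta
With the control plasmid it had 7 and 6 counts before and 21 and 6 after oxidation, then 4 and 1 in non-oxidized and 10 and 13 in oxidized methyltransferase RNA. The groups overlapped with the control plasmid and not with the methyltransferase. It made up 84.0% and 54.5% of the miR-125a-5p counts left in the 2 oxidized control libraries. The log2 change on oxidation was 0.57 ± 0.81 with the control plasmid (edgeR adjusted p = 0.549). Under total-count scaling it was 4.95 and called higher, and among mature miRNAs alone 6.75 and called higher. This sequence has 6 genomic matches in the deposited table, where the other members have 1 or, for miR-125b-5p, 2, so its counts cannot be assigned to the miR-125a locus. A further sequence, a 22-nt form of miR-125a-5p shifted by 1 base at its 5′ end, did not pass the filter on low counts. Its counts were 9 and 8, 0 and 0, 2 and 0, and 6 and 11 in the same order of groups.

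In oxidized RNA, these miRNAs were counted again where cells had the methyltransferase plasmid. The 24-nt miR-125a-5p sequence had 0 and 0 counts with the control plasmid and 537 and 556 with the methyltransferase. The 21-nt miR-125a-3p sequence had 1 and 2 against 220 and 160. The 22-nt miR-99b-5p sequence had 2 and 3 against 379 and 316. In each of these 3 the groups lay far apart. The 22-nt miR-125b-5p sequence rose from 0 and 0 to 125 and 97, the 22-nt miR-99a-5p sequence from 0 and 0 to 117 and 315, and the miR-99b-3p sequence from 0 and 0 to 13 and 13. The last of these is the least abundant arm, and these are raw counts from libraries of unequal size. With listed totals its bound was 0.559-fold, so a rise was not shown on that scale. Presence in the oxidized methyltransferase libraries was also a condition of the listing.

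In the edgeR fit 16 of the 17 tested members were higher with the methyltransferase in oxidized RNA, where 42.3% of all sequences were higher, and the 16-nt sequence was the exception (−0.02 ± 0.76, adjusted p = 0.989). Of the mature miRNA sequences, 518 of 607 were higher. Under TMM scaling the rise was at least 192-fold for the 24-nt miR-125a-5p sequence (edgeR adjusted p = 1.97e-06), and at least 79.5-fold and 38.3-fold for the 22-nt sequences of miR-99a-5p and miR-125b-5p. For miR-99b-3p it was at least 4.55-fold. Across the 12 members with no count in oxidized control RNA the bounds ran from 2.30-fold to 192-fold. With listed totals the bound was 23.5-fold for the 24-nt miR-125a-5p sequence, and 7 of the 12 bounds were above 1. For the 21-nt miR-125a-3p sequence the TMM-scaled ratio was 136 (46.2 to 663), with a log2 fold change of 6.92 ± 0.63 (edgeR adjusted p = 4.99e-06). For the 22-nt miR-99b-5p sequence it was 149 (63.7 to 461), with 7.12 ± 0.53 (edgeR adjusted p = 1.67e-06). The median fitted value was 7.12, or 5.03 with members at their bound, beside 0.82 and 0.78 for all sequences and 6.49 for mature miRNA sequences. The members' median thus lay near that of mature miRNAs in general.

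The interaction of plasmid and oxidation was called in the same model for 16 of 17 members, where 39.6% of all sequences had a higher interaction. Of mature miRNA sequences it was 520 of 607. The interaction was 7.36 ± 0.64 on the log2 scale for the 22-nt miR-99b-5p sequence (edgeR adjusted p = 6.57e-06) and 7.23 ± 0.77 for the 21-nt miR-125a-3p sequence (edgeR adjusted p = 2.15e-05). With total counts these values were 3.89 and 3.80, and among mature miRNAs alone 2.76 and 2.68. For the 24-nt miR-125a-5p sequence it was at least 356-fold under TMM scaling and at least 29.3-fold with listed totals. The comparisons share libraries, so the counts of calls are not independent of each other.

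Scaling matters for these sizes, since listed sequences differ in their total between groups. With total counts in place of TMM factors, the median over all 9851 sequences moved from 0.82 to −2.17 between plasmids in oxidized RNA, from −1.14 to 3.20 on oxidation with the control plasmid and from 0.96 to −2.55 for the interaction. Over all sequences, 4166 higher and 386 lower calls between plasmids in oxidized RNA became 2743 and 4794. On oxidation with the control plasmid, 1809 higher and 4571 lower calls became 5202 and 2331. For the interaction, 3903 higher and 296 lower calls became 1992 and 4110. Of the members, 13 were then called higher and 1 lower between plasmids in oxidized RNA, and 15 lower and 1 higher on oxidation with the control plasmid. The member called the other way was the 16-nt sequence in both. The interaction was called higher for 13 members with total counts, and for 11 higher and 1 lower among mature miRNAs alone. Of all 609 sequences in the latter fit, 212 were higher and 80 lower. Between plasmids in oxidized RNA the log2 fold change of the 22-nt miR-99b-5p sequence was 4.17 with total counts and 3.21 among mature miRNAs alone, and that of the 21-nt miR-125a-3p sequence 4.02 and 3.06. The fit among mature miRNAs alone has TMM factors of its own. Its values are thus not changes in the share of mature totals, which are given below. The 12 members named with full values kept their direction in both comparisons, among mature miRNAs alone as well, where the miR-99b-3p sequence lost its call between plasmids (edgeR adjusted p = 0.105) and the 21-nt miR-125a-3p sequence lost its call on oxidation with the control plasmid (edgeR adjusted p = 0.152).

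As a share of mature miRNA counts, which were 13772 and 10115 in the oxidized control libraries and at least 1643283 in each other library, the members stood differently. Together they were at 2033 and 1582 mature CPM in oxidized control RNA, beside 4473 and 4185 before oxidation. For miR-125a-5p the values were 1815 and 1087, above the 896 and 978 before oxidation, and most of its counts there were the 16-nt form. For miR-99b-5p they were 145 and 297, below the 1982 and 1977 before oxidation. Scaled by mature totals, a size chosen after seeing the data, the 22-nt miR-99b-5p sequence had a ratio of 0.900 between plasmids in oxidized RNA (0.384 to 2.78) and the 21-nt miR-125a-3p sequence 0.820 (0.279 to 3.99). On this scale 1 of the 12 bounds between plasmids in oxidized RNA was above 1, so a rise of these members beyond that of mature miRNA counts as a whole was not detectable for the other 11.

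The arms kept different parts of their signal when methyltransferase RNA was oxidized. The arm most reduced was miR-99b-5p, the most abundant before oxidation. It went from 2497 ± 112 to 245 ± 7.43 mature CPM, a factor of 10.2. miR-125b-5p went from 358 ± 216 to 94.6 ± 3.87 and miR-99a-5p from 584 ± 111 to 176 ± 118, factors of 3.78 and 3.33. miR-125a-5p went from 794 ± 327 to 597 ± 84.4, and its groups overlapped. miR-99b-3p went from 10.4 ± 0.350 to 7.13 ± 1.10. miR-125a-3p alone was higher after oxidation on this scale, at 146 ± 7.06 against 107 ± 1.07, a factor of 1.37. Under the TMM scaling of the fit it was not higher, as given below. Among 179 miRNA annotations in oxidized methyltransferase RNA, miR-125a-5p ranked 28, miR-99b-5p 40, miR-99a-5p 43, miR-125a-3p 49, miR-125b-5p 61 and miR-99b-3p 153. The first place in the families passed from miR-99b-5p to miR-125a-5p.

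In the edgeR fit of single sequences, 7 of 17 members were lower after oxidation with the methyltransferase and 0 were higher, where 11.2% of all sequences were lower. Among mature miRNA sequences 251 of 607 were lower (41.4%), close to the members' 41.2%. The 7 were the 22-nt miR-99b-5p sequence, both miR-99a-5p sequences, 3 of the 4 miR-125b-5p sequences and the 20-nt miR-125a-3p sequence that starts at the mature 5′ end. With total counts, 3 of the 7 stayed called, the 22-nt sequences of miR-99b-5p and miR-125b-5p and the 21-nt miR-99a-5p sequence, and the same 3 were called without the first oxidized methyltransferase library. Over all 9851 sequences, 630 were lower with total counts. The 22-nt miR-99b-5p sequence had 5171 and 7654 counts before and 379 and 316 after oxidation, a log2 fold change of −4.45 ± 0.41 (edgeR adjusted p = 4.01e-05). It was the member that fell most, and 42 of 607 mature miRNA sequences had a value this low or lower. The 22-nt miR-125b-5p sequence had 720 and 406 counts before and 125 and 97 after oxidation, a change of −2.63 ± 0.45 (edgeR adjusted p = 0.00295). For the 21-nt miR-125b-5p sequence, with 315 and 158 against 28 and 46, it was −2.92 ± 0.56 (edgeR adjusted p = 0.00568), and 0.0613 without the first oxidized methyltransferase library.

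The 2 miR-99a-5p sequences also fell. The 21-nt sequence had 654 and 455 counts before and 71 and 111 after oxidation, a log2 fold change of −2.84 ± 0.49 (edgeR adjusted p = 0.00314). The 22-nt sequence had 837 and 1087 before and 117 and 315 after, a change of −2.32 ± 0.55 (edgeR adjusted p = 0.0175). The pair of oxidized libraries was wide for this sequence, and its call was lost without the first of them (−1.72, edgeR adjusted p = 0.0703). It was also lost with total counts (−1.44, edgeR adjusted p = 0.110), among mature miRNAs alone (−0.84, edgeR adjusted p = 0.233), and with only the libraries compared (edgeR adjusted p = 0.0701).

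No miR-125a-5p sequence passed the test in this comparison. The 24-nt sequence had 1041 and 722 counts before and 537 and 556 after oxidation, a log2 fold change of −0.95 ± 0.41 (edgeR adjusted p = 0.181). The 23-nt sequence had 840 and 681 against 386 and 340, a change of −1.33 ± 0.48 (edgeR adjusted p = 0.0992). The 22-nt sequence had 419 and 310 against 160 and 159, a change of −1.45 ± 0.59 (edgeR adjusted p = 0.144). All 3 lay lower after oxidation under TMM without overlap, and above 0 among mature miRNAs alone (0.52, 0.14 and 0.017). A lack of overlap was found for 16 of 17 members in this comparison. Its share over all sequences was not computed, so no result about these members is drawn from it. The 23-nt and 22-nt sequences were called lower by DESeq2's Wald test (adjusted p = 0.0497 and 0.0424), and by edgeR without either oxidized control library (adjusted p = 0.0255 and 0.0258, and 0.0240 and 0.0243). Summed over its listed sequences and refitted, miR-125a-5p had −1.24 ± 0.38 (edgeR adjusted p = 0.0595), beside −2.72 ± 0.45 for miR-125b-5p, −2.58 ± 0.50 for miR-99a-5p and −4.23 ± 0.41 for miR-99b-5p, all 3 called, where 9.76% of 8476 summed features were lower.

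The miR-125a-3p sequences had values on both sides of the threshold. The 21-nt sequence had 122 and 179 counts before and 220 and 160 after oxidation, with overlapping groups and a log2 fold change of 0.08 ± 0.43 (edgeR adjusted p = 0.932). The 22-nt sequence had 66 and 93 against 68 and 60, a change of −0.56 ± 0.46 (edgeR adjusted p = 0.484). The 20-nt sequence fell from 40 and 39 to 9 and 8, by 2.46 ± 0.55 on the log2 scale (edgeR adjusted p = 0.0142). Its call was lost without the first non-oxidized, the first oxidized or the second oxidized methyltransferase library (edgeR adjusted p = 0.0529, 0.0924 and 0.0902). Refitted among mature miRNAs alone, the 21-nt sequence was called higher (1.54, edgeR adjusted p = 0.0078) and the 20-nt sequence was not called (−1.01, edgeR adjusted p = 0.121). In that fit 3 members were called lower and 2 higher, the other higher one being the 16-nt sequence. Of all 609 sequences in it, 142 were lower and 121 higher. The miR-99b-3p sequence had 24 and 31 counts against 13 and 13, a change of −1.32 ± 0.53 (edgeR adjusted p = 0.147).

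**Figure D2:**
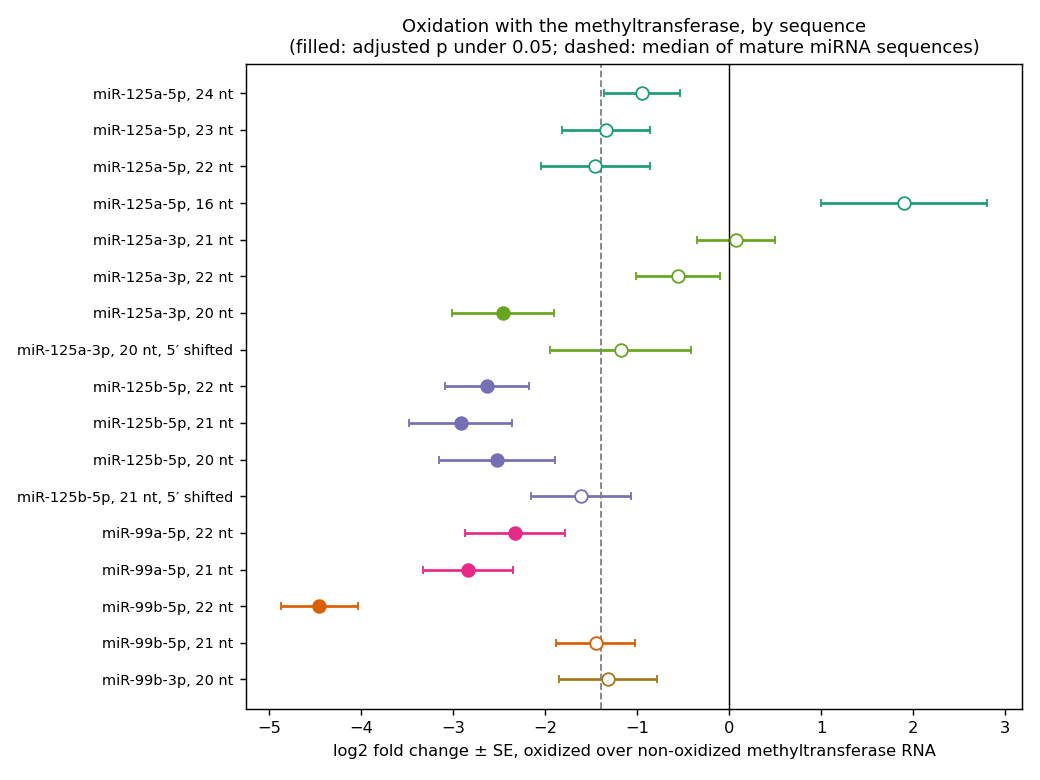
Log2 fold change of each tested member, oxidized over non-oxidized methyltransferase RNA, with its SE, from the edgeR fit of 8 libraries (2 per group). Filled points passed an adjusted p of 0.05, and the dashed line is the median of the mature miRNA sequences, −1.39. The 22-nt miR-99b-5p sequence lies farthest to the left at −4.45, 10 members lie below the median and 7 above it.

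Ratios within a library do not depend on how libraries are scaled, and 13 were compared between non-oxidized and oxidized methyltransferase RNA. With 2 libraries against 2, the exact two-sided permutation test cannot give a p below 0.333, so no ratio can pass a threshold alone, and the adjusted value is no smaller. The miR-125a-5p to miR-99b-5p ratio, between products of the same cluster, was 0.424 and 0.218 before oxidation and 2.15 and 2.74 after it, where non-oxidized control RNA had 0.452 and 0.495. It was 7.97 times higher after oxidation, with no overlap (exact permutation p = 0.333). The ratio of miR-125a-5p to miR-125b-5p, which share their seed, was 2.01 and 2.74 before and 5.85 and 6.74 after, with no overlap, and 1.86 and 2.00 in non-oxidized control RNA. The ratio of miR-99a-5p to miR-99b-5p, also with a shared seed, was 0.274 and 0.196 before and 0.367 and 1.08 after, with no overlap and a wide pair after oxidation. Non-oxidized control RNA had 0.511 and 0.320, so the lower oxidized value lay inside the control range. Both ratios between members with a shared seed lay above their range in non-oxidized methyltransferase RNA. The ratio of miR-99a-5p to miR-125b-5p overlapped between the groups.

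The 3p arms stood higher against their 5p arms after oxidation in both hairpins that gave 2 arms. For miR-125a the ratio of 3p to 5p was 0.103 and 0.191 before and 0.280 and 0.214 after oxidation, on average 1.75 times higher with no overlap. For miR-99b it was 0.00441 and 0.00395 before and 0.0254 and 0.0330 after, 6.94 times higher with no overlap. Non-oxidized control RNA had 0.0926 and 0.0934 for miR-125a and 0.00890 and 0.00924 for miR-99b. The plasmids thus also differed before oxidation, with the methyltransferase values higher for miR-125a and lower for miR-99b. The miR-99b rise on oxidation rests on 24 and 31, then 13 and 13 counts of the 3p arm. It also rests on the 22-nt 5p form, which held most 5p counts and had a log2 change of −4.45. The 21-nt 5p form had −1.45, near the −1.32 of the 3p sequence. In both hairpins the exact permutation p was 0.333, the smallest this design allows.

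**Figure D3:**
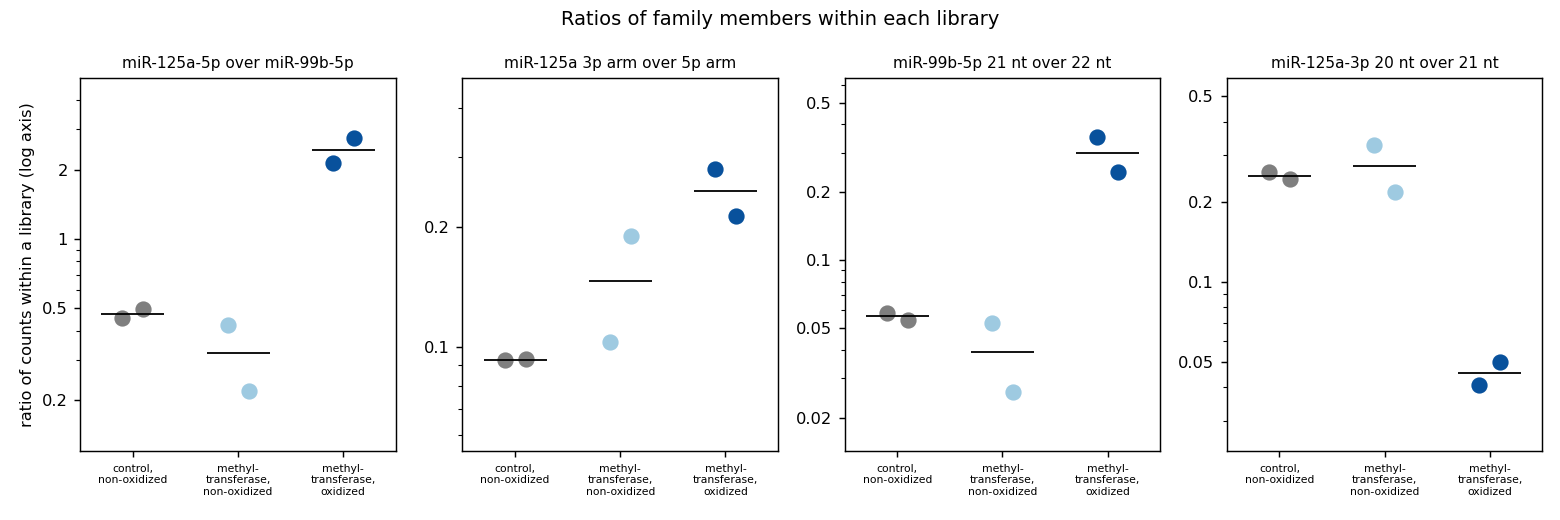
Ratios of counts within each library for 4 pairs of members, on log axes, with points for libraries and bars for the mean of 2. The ratio of miR-125a-5p to miR-99b-5p and the 21-nt to 22-nt ratio of miR-99b-5p are higher in both oxidized methyltransferase libraries than in the 4 non-oxidized ones, and the 20-nt to 21-nt ratio of miR-125a-3p is lower in both.

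Forms of the same arm that differ by a base at the 3′ end also stood in other ratios after oxidation. The 3′ end is where the methyl group is placed and where periodate acts. The 2 forms of miR-99b-5p and the 3 forms of miR-125a-3p with the mature 5′ end show it most clearly. They are written as in the deposited table, with T for U and the seed in capitals.
miR-99b-5p, 22 nt: cACCCGTAgaaccgaccttgcg
miR-99b-5p, 21 nt: cACCCGTAgaaccgaccttgc
miR-125a-3p, 22 nt: aCAGGTGAggttcttgggagcc
miR-125a-3p, 21 nt: aCAGGTGAggttcttgggagc
miR-125a-3p, 20 nt: aCAGGTGAggttcttgggag
The 21-nt miR-99b-5p sequence had 271 and 198 counts in non-oxidized and 133 and 78 in oxidized methyltransferase RNA, a change of −1.45 ± 0.43 (edgeR adjusted p = 0.0527). It was called lower without the first or the second oxidized control library (edgeR adjusted p = 0.0337 and 0.0340) and with a replicate block (edgeR adjusted p = 0.0466). Its ratio to the 22-nt form was 0.0524 and 0.0259 before and 0.351 and 0.247 after oxidation, 7.99 times higher with no overlap (exact permutation p = 0.333). As a share of miR-99b-5p counts the 21-nt form was 5.32% ± 0.252 in non-oxidized control RNA, 3.75% ± 1.74 in non-oxidized and 22.9% ± 4.37 in oxidized methyltransferase RNA. The 22-nt form, which ends in G, was thus the one that lost more. These forms differ in both length and last base, and the part of each was not tested.

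The 20-nt miR-125a-3p form also ends in G, and its ratio to the 21-nt form, which ends in C, was 0.328 and 0.218 before and 0.0409 and 0.05 after oxidation. That was 5.91 times lower with no overlap (exact permutation p = 0.333). The 21-nt to 22-nt ratio, both ending in C, was 1.85 and 1.92 before and 3.24 and 2.67 after, 1.56 times higher. Other neighbouring forms differed less. In miR-125a-5p the 24-nt form, ending in A, stood 0.38 above the 23-nt form, ending in G, in log2 change on oxidation. The 23-nt form stood 0.12 above the 22-nt form, ending in T. In miR-125b-5p the 21-nt form, ending in G, stood at −0.39 against the 20-nt form, ending in T. In miR-99a-5p the direction was the other way, since the 22-nt form, ending in G, stood 0.51 above the 21-nt form, ending in T. The 21-nt to 22-nt ratios of miR-99a-5p and miR-125b-5p overlapped between the groups.

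Over all 607 mature miRNA sequences tested, the 142 that end in G had a median log2 change of −2.65 on oxidation with the methyltransferase (quartiles −3.91 to −1.20), and the 465 that end in another base had −1.12. The medians were −1.36 for A, −1.40 for C and −0.96 for T. Among the members, the 5 that end in G had a median of −2.46 (−4.45 to −1.33), the 5 that end in C −1.18, the 4 that end in A −1.28 and the 3 that end in T −2.53. The members that end in T, from miR-125a-5p, miR-125b-5p and miR-99a-5p, thus lay as low as those that end in G. These are descriptions over sequences of the same libraries, and many of the sequences are forms of the same miRNA.

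The let-7 neighbours of the 3 clusters were compared through their most abundant sequences. In RefSeq let-7a-5p and let-7c-5p also come from loci outside these clusters, on chromosomes 13 and 15, and their counts cannot be assigned to the neighbours. All 3 of let-7e-5p, let-7c-5p and let-7a-5p were higher with the methyltransferase in oxidized RNA, and 0 of 3 were called on oxidation with the methyltransferase. The let-7e-5p sequence, from the hairpin between miR-99b and miR-125a, had 13948 and 23557 counts before and 11821 and 12073 after oxidation, a change of −0.88 ± 0.39 (edgeR adjusted p = 0.189). By annotation let-7e-5p stood at 9345 ± 1433 mature CPM before and 8767 ± 1212 after oxidation, where miR-99b-5p was lower by a factor of 10.2. The difference between these 2 was not tested. Of the related miR-10 family, none of 2 miRNAs was listed. Over the 8 libraries, the patterns closest to that of the 24-nt miR-125a-5p sequence among the main sequences of 126 arms were those of miR-128-3p, miR-324-5p and miR-30e-3p, with root-mean-square differences of 0.452, 0.492 and 0.500 in centred log2 CPM.

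The authors' deposited table gives their own comparisons for the same sequences. By its adjusted p-values under 0.05, 17 of 18 members were higher with the methyltransferase in oxidized RNA, and 8 of 18 were lower after oxidation with the methyltransferase. Of all 11568 sequences in the authors' deposited table, 46.2% and 9.77% passed the same rules, and 555 and 256 of the 652 mature miRNA sequences did. Its signed fold for the 22-nt miR-99b-5p sequence was 21.2 for non-oxidized over oxidized methyltransferase RNA, with an adjusted p of 3.465e-18 in the authors' deposited table.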

How the data were processed

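Small RNA libraries were made from 5 ng of RNA with a QIAseq miRNA kit after miRNeasy extraction, per the labels' protocols. The deposited table gives, per the file headers, a count for each distinct read sequence in each of 8 libraries, its annotation hit and its number of genomic matches. Aligner, genome build, trimming and the use of molecular identifiers are not given in the sources used here. The authors' signed fold change, read as a score, and their adjusted p-value are per the file headers and were only quoted. Lines that repeat a sequence (12608 lines in all) were merged.

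The fit used edgeR 4.0.16 under R 4.3.3 (TMM, filterByExpr, quasi-likelihood test) in 1 model of 4 groups, and p-values were adjusted by Benjamini-Hochberg over 9851 sequences, with a call at an adjusted p under 0.05. The model was also run on simulated counts, with most sequences set equal between plasmids in oxidized RNA, unlike in these data. No result here rests on that run. A group at 0 was set to 3 counts per library for a bound, and ratios that rest on few counts have 95% counting intervals. Both kinds of limit cover counting error alone. In the smallest library, 0 counts allow up to 0.00102% of its listed counts. Named with full values were the most abundant sequence of each arm and every member with a mean of at least 50 counts, 12 in all. Members and lists were chosen with earlier results of these data known. Mature sequences are from RefSeq (11 names at 12 loci). Alternatives were DESeq2 1.42.0 (size factors and Wald test), total counts, no filter, sums by annotation, mature miRNAs alone, only the libraries compared, a replicate block, and leaving out each library. The fit of mature miRNAs alone had TMM factors of its own. Library sizes equal to mature miRNA totals were added for bounds and ratios after seeing the data.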

Additional observations from a re-analysis of the deposited data

Results flagged for a closer look

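The interaction of plasmid and oxidation passed edgeR's quasi-likelihood test for all 12 members named with full values. So did 39.6% of all sequences and 520 of 607 mature miRNA sequences in the same direction, so this is not particular to these families. These values are on the log2 scale, and those of members with no count in oxidized control RNA depend on the prior count, so their bounds under TMM scaling are given too. With listed totals in place of TMM sizes, 8 of 12 such bounds among all members were above 1, from 0.209 to 29.3. Among mature miRNAs alone, the call of the 21-nt miR-125b-5p sequence was lost (edgeR adjusted p = 0.0582). For miR-125a-5p the interaction was 12.91 for the 24-nt sequence (at least 356-fold), 8.33 for the 23-nt and 7.05 for the 22-nt sequence. The last 2 rest on 4 and 5 counts, each in a single oxidized control library. Without the first such library they were 12.10 and 5.89, and without the second 7.55 and 11.33. For miR-125a-3p it was 7.23 for the 21-nt and 9.33 for the 22-nt sequence (at least 29.8-fold). For miR-125b-5p it was 10.93 for the 22-nt (at least 90.4-fold) and 8.90 for the 21-nt sequence (at least 22.2-fold). For miR-99a-5p it was 11.63 for the 22-nt (at least 147-fold) and 10.83 for the 21-nt sequence (at least 84.6-fold). For miR-99b-5p it was 7.36 for the 22-nt and 10.42 for the 21-nt sequence (at least 63.6-fold). For miR-99b-3p it was 8.02 (at least 12-fold).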

How the results depend on the processing

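Leaving out each library in turn gave 16 to 17 members called between plasmids in oxidized RNA, 16 to 17 on oxidation with the control plasmid, 16 to 17 for the interaction, 0 between plasmids in non-oxidized RNA, and 3 to 10 on oxidation with the methyltransferase. The low end of the last range came without the first oxidized methyltransferase library. These fits tested 17 or 18 members over 10480 to 10954 sequences, where the main fit tested 17 over 9851. Each leaves 1 library in a group, and the ranges were not set against the share called over all sequences. No result about these members is therefore drawn from the width of the ranges. On oxidation with the methyltransferase, 7 members lower became 3 with total counts and 3 among mature miRNAs alone. Over all sequences, 1100 lower of 9851 became 630 of 9851 with total counts, and 142 of 609 were lower among mature miRNAs alone. Summed by annotation, 6 of 6 arms were called between plasmids in oxidized RNA, on oxidation with the control plasmid and for the interaction, and 3 of 6 on oxidation with the methyltransferase, where 43.2%, 46%, 40.6% and 9.76% of 8476 summed features were called in that direction. The cause of these moves was not tested, except that sums leave fewer features.

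In the refits, signs turned in values that were not called under TMM. With mature totals, given last, ratios turned for values that were called under TMM. Between plasmids in non-oxidized RNA, with total counts and among mature miRNAs alone, the 21-nt miR-125a-3p sequence had 0.21 and 0.38, the 22-nt sequence 0.11 and 0.27 and the 22-nt miR-99b-5p sequence 0.28 and 0.45. On oxidation with the methyltransferase among mature miRNAs alone, miR-125a-5p had 0.52, 0.14 and 0.017 (24, 23 and 22 nt), the 22-nt miR-125a-3p sequence 0.91 (0.33 with total counts), the 21-nt miR-99b-5p sequence 0.0096 and miR-99b-3p 0.14. The 21-nt miR-125a-3p sequence had −0.43 summed over its arm, and without single libraries it ran from −0.14 (without the first non-oxidized methyltransferase library) to 0.32, with −0.0154 without the first oxidized methyltransferase library. Scaled by mature totals, added after seeing the data, ratios of TMM-scaled counts turned to 0.900 (22-nt miR-99b-5p) and 0.820 (21-nt miR-125a-3p) between plasmids in oxidized RNA, and to 0.368 for the latter on oxidation with the control plasmid, non-oxidized over oxidized. The replicate block gave 16 members between plasmids in oxidized RNA and 8 lower on oxidation with the methyltransferase, where 4192 and 1172 of 9851 sequences were called in that direction. Libraries with the same number deviated together with correlations of −0.03 to 0.37 over 9851 sequences, so the number was not taken as a pairing. Counts of a few reads limit what can be said of miR-99b-3p and of all members in oxidized control RNA.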

Other observations

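Outside the annotation used here, 10 listed sequences were a member with a base, or in 1 case TT, added at the 3′ end. Of these, 8 were tested and 8 were higher with the methyltransferase in oxidized RNA, where 42.3% of all sequences and 518 of 607 mature miRNA sequences were. The most abundant, the 23-nt miR-125a-5p sequence with an added T, had 1005 and 1157 counts with the control plasmid before oxidation, 0 and 0 after it, and 544 and 427 against 291 and 206 with the methyltransferase. A further 15 sequences were 1 substitution from a member, and 8 of 10 tested were higher with the methyltransferase in oxidized RNA.

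The patterns closest to 2 other main sequences were looked up after the values were seen. For the 22-nt miR-99b-5p sequence they were miR-130a-3p, miR-15b-5p and miR-26a-5p, with root-mean-square differences of 0.417, 0.455 and 0.480. For the 21-nt miR-125a-3p sequence they were miR-505-5p, miR-28a-3p and miR-200a-5p, with 0.305, 0.610 and 0.650.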
